A study of Mus musculus with 12 samples.

Results

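Genes that are known as marks of alveolar type 1 epithelial cells were followed in CD31+ cell preparations from mouse lung, namely Ager, Rtkn2, Cldn18, Lama3, Col4a3, Igfbp2 and Sema3a. They are 7 of the 9338 genes that have a row in at least 1 of 4 pairwise expression tables, and they were picked by name, with the diet and genotype differences of these same tables already known. All 7 were higher in wild-type mice on high-fat diet than on chow, by 2.53-fold (Ager) to 9.03-fold (Igfbp2), and all 7 were lower in TET2 knockout than in wild-type mice on high-fat diet, by 1.87-fold (Cldn18) to 4.81-fold (Rtkn2). These differences therefore describe the members and were not tested as a finding.

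The study bred mice with floxed Tet2 alleles to a line in which the endothelial Cdh5 promoter drives a tamoxifen-dependent Cre recombinase, on a C57Bl/6J background. All 12 male mice were TET2fl/fl and were given tamoxifen at 40 mg/kg on each of 3 days when 6 to 8 weeks old, so that the wild-type groups also carried the floxed alleles and the drug but no Cre. WT_CHOW (Cre negative) and KO_CHOW (Cdh5-CreERT2 positive) stayed on standard chow with 13% of energy from fat, and WT_HFD (Cre negative) and KO_HFD (Cdh5-CreERT2 positive) were given a diet with 60% of energy from fat for 20 weeks, with 3 mice a group and 1 RNA library a mouse at 30 weeks of age. Cells were taken from digested lung with magnetic beads that carry an antibody to CD31, an endothelial surface protein, and no other cell type was depleted in the protocol given. Between 36721000 and 42687000 reads (to the nearest 1000) fell on genes in 10 of the libraries, 43838000 in WT_CHOW replicate 1 and 56789000 in WT_HFD replicate 1, the deepest, as recovered from the ratio of counts to FPKM.

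Alveolar type 1 cells are the thin, flat cells that line most of the gas exchange surface of the lung. Their basal side is fused to that of the capillary endothelium through a shared basement membrane, and they are epithelial cells whose defining genes are not endothelial. Ager encodes the receptor RAGE and Cldn18 a tight junction claudin of the alveolar epithelium, Lama3 and Col4a3 encode chains of basement membrane laminin and type IV collagen, Igfbp2 and Sema3a encode secreted proteins, and Rtkn2 encodes rhotekin 2, an intracellular signalling protein.

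Each table lists the genes with an unadjusted p under 0.05 in the authors' own comparison and holds the 6 libraries of that comparison. All 7 members were listed for WT_HFD against WT_CHOW and for KO_HFD against WT_HFD, which share the 3 WT_HFD libraries. None was listed for KO_CHOW against WT_CHOW, and Sema3a alone was listed for KO_HFD against KO_CHOW. Values in the KO_CHOW libraries were therefore available for Sema3a, and the other 6 members were not analysed there. Tet2 itself had a row in 1 table only, that of the wild-type groups, where it lay at 4.73, 5.18 and 5.15 FPKM (the authors' read count scaled to exon length and library depth) in the WT_CHOW libraries and at 6.07, 6.32 and 6.71 FPKM in the WT_HFD libraries. The deletion could thus not be checked against the genotype labels from these tables.

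The label of the preparations was compared with marker genes. All 12 endothelial genes of a fixed list had a row for WT_HFD against WT_CHOW, led by Cldn5, a claudin of endothelial junctions, at a mean of 147 FPKM in WT_CHOW and 359 FPKM in WT_HFD. In the same comparison 17 of 21 other alveolar type 1 genes were listed, led by Vegfa, which encodes a growth factor for endothelial cells and is not restricted to 1 cell type, and by Emp2, Clic5 and Hopx, while Pdpn, Akap5, Sema3e and Fam189a2 had no row. Of 15 alveolar type 2 genes 9 were listed, led by Sftpb, the gene of surfactant protein B, and the surfactant genes Sftpa1, Sftpc and Sftpd had no row. RNA of both alveolar epithelial lineages was thus present beside RNA of endothelium, and in such bulk RNA fewer cells of a type and less RNA per cell cannot be told apart.

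One library stood apart from its group before any comparison. WT_CHOW replicate 3 held the highest level of each of the 7 members among the WT_CHOW libraries, and also the highest summed level of the 12 endothelial genes, at 837 FPKM against 345 and 297 FPKM in replicates 1 and 2, and of the 9 listed alveolar type 2 genes, at 655 FPKM against 278 and 242 FPKM. The diet differences of the members are therefore given with and without it. So is the number of genes called with diet in several lists, among them the endothelial and alveolar type 2 lists.

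The start regions of the most abundant member and of the member with the greatest diet difference over all 6 wild-type libraries are shown here. RefSeq (GRCm38.p6) gave windows of 250 bases before to 50 bases after a start site for 4 of the 7 members, in 6 windows, and none was used for Rtkn2, Lama3 or Col4a3. Capitals mark matches on either strand to GGAATG, the core of TEAD sites, CTCAAG, a core bound by NKX2-1, or TGANTCA, the AP-1 site, and the rest is in lower case.
Ager, chr17:34597600-34597899, plus strand: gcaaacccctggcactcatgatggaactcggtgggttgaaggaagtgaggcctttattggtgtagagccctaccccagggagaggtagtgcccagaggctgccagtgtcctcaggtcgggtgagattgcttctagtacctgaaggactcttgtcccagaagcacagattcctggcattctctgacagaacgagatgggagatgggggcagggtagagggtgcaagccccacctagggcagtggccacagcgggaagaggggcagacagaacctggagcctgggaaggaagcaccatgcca
Igfbp2, chr1:72824230-72824529, plus strand: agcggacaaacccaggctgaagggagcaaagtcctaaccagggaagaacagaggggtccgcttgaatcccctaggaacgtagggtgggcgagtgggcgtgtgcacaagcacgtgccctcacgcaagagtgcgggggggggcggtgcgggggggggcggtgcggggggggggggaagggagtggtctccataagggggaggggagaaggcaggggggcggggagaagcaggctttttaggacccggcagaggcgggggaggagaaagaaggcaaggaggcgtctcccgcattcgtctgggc
Igfbp2, chr1:72825137-72825436, plus strand: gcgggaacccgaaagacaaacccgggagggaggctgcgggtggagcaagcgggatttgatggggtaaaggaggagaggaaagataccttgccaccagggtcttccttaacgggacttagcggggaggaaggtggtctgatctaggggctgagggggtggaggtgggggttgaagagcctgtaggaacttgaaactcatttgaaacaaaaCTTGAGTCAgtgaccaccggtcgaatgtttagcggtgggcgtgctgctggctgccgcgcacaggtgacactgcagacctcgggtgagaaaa
The window of Ager and the first window of Igfbp2 hold the start of the gene as the tables place it, and neither contains any of these 3 motifs. The second window of Igfbp2 holds 1 match to the NKX2-1 letters and 1 to the AP-1 letters, which overlap in the run CTTGAGTCA and begin 41 and 39 bases before the start site. Both windows of Cldn18 and that of Sema3a hold no match either. The window of Sema3a (13396534 to 13396833) and that of Cldn18 at 99710014 to 99710313 do not hold the start of the gene so placed. Of all 32851 windows of this length, 14.7% held the TEAD letters, 15.9% the NKX2-1 letters and 7.81% the AP-1 letters, so that 1 window with a match among 6 describes sequence only.

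Ager was the most abundant member in each of the 9 libraries where it had a value. It lies on mm10 chromosome 17 at 34597862 to 34600936. Its level was 13.2, 13.5 and 26.9 FPKM in the WT_CHOW libraries (1235, 1059 and 2250 reads), 50.7, 43.3 and 41.1 FPKM in WT_HFD (6162, 3670 and 3450 reads), and 22.8, 12.4 and 29.5 FPKM in KO_HFD (2049, 1045 and 2405 reads). All 3 WT_HFD libraries lay above all 6 others, whereas the ranges of WT_CHOW and KO_HFD overlapped. The log2 fold change was 1.34 (SE 0.29) for WT_HFD against WT_CHOW and -1.06 (SE 0.30) for KO_HFD against WT_HFD.

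Cldn18, at chromosome 9, 99689461 to 99717267, followed at 2.19, 1.74 and 5.87 FPKM in WT_CHOW, 10.5, 6.81 and 10.4 FPKM in WT_HFD, and 4.18, 2.57 and 8.08 FPKM in KO_HFD. It was the 1 member whose KO_HFD and WT_HFD libraries overlapped, since KO_HFD replicate 3 lay above WT_HFD replicate 2. Its log2 fold change was 1.51 (SE 0.47) with diet in the wild type and -0.90 (SE 0.40) for KO_HFD against WT_HFD, and the latter ran from -1.44 without KO_HFD replicate 3 to -0.59 without KO_HFD replicate 2.

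Lama3 encodes the laminin alpha 3 chain, a part of the anchoring laminin of epithelia. It was counted at 82, 78 and 177 reads in WT_CHOW (0.174, 0.198 and 0.422 FPKM), 548, 345 and 598 reads in WT_HFD (0.898, 0.812 and 1.42 FPKM) and 165, 115 and 98 reads in KO_HFD (0.366, 0.272 and 0.239 FPKM). WT_HFD stood above both other groups with no overlap, and KO_HFD fell inside the range of WT_CHOW. The log2 fold changes were 1.98 (SE 0.40) and -1.82 (SE 0.28).

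Col4a3 encodes the alpha 3 chain of type IV collagen, which assembles with the alpha 4 and alpha 5 chains, and lies on chromosome 1 at 82586921 to 82722059. Its level was 0.135, 0.164 and 0.358 FPKM in WT_CHOW, 1.36, 0.971 and 0.855 FPKM in WT_HFD, and 0.431, 0.222 and 0.332 FPKM in KO_HFD, on 59 to 769 reads. The lowest WT_HFD library was again above every library of the other groups. The log2 fold changes were 2.28 (SE 0.41) and -1.69 (SE 0.30).

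Igfbp2, a secreted binding protein of insulin-like growth factors and a known mark of mature alveolar type 1 cells, differed most with diet over all 6 wild-type libraries, whereas without WT_CHOW replicate 3 Rtkn2 did (3.95 against 3.88 on the log2 scale). It lies on chromosome 1 at 72824503 to 72852474 and gave 40, 30 and 98 reads in WT_CHOW, 887, 480 and 410 reads in WT_HFD and 162, 52 and 111 reads in KO_HFD. In FPKM these were 0.494, 0.442 and 1.36, then 8.46, 6.57 and 5.66, then 2.09, 0.716 and 1.58. The lowest WT_HFD library thus stood above the highest KO_HFD library and the highest WT_CHOW library. The log2 fold change was 3.17 (SE 0.46) for diet in the wild type, a 9.03-fold difference, and -2.23 (SE 0.38) for KO_HFD against WT_HFD.

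Rtkn2, on chromosome 10 at 67979570 to 68059740, had few reads on chow, with 27, 17 and 91 reads in WT_CHOW (0.111, 0.0835 and 0.421 FPKM). It reached 603, 342 and 228 reads in WT_HFD (1.91, 1.56 and 1.05 FPKM) and was at 92, 31 and 84 reads in KO_HFD (0.396, 0.142 and 0.397 FPKM). Its WT_HFD libraries were apart from both other groups, which overlapped. The log2 fold changes were 2.88 (SE 0.62) and -2.27 (SE 0.42), of which the former had the greatest SE of the members. It was 3.95 (SE 0.38) without WT_CHOW replicate 3.

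Sema3a encodes a secreted semaphorin that guides axons and vessels through neuropilin 1 and plexins and lies on chromosome 5 at 13125414 to 13602565. It was the least abundant member and the 1 with values in all 4 groups. Its reads numbered 28, 17 and 49 in WT_CHOW, 96, 66 and 32 in KO_CHOW, 242, 127 and 102 in WT_HFD, and 45, 26 and 25 in KO_HFD. The group means were 0.242 FPKM ± 0.0606 in WT_HFD, 0.112 ± 0.0520 in KO_CHOW, 0.0575 ± 0.0173 in KO_HFD and 0.0567 ± 0.0301 in WT_CHOW (SD, n = 3 each). WT_HFD lay above all 9 other libraries, whereas each pair of the other 3 groups overlapped. The log2 fold change was 2.10 (SE 0.41) for WT_HFD against WT_CHOW, -2.06 (SE 0.33) for KO_HFD against WT_HFD and -0.96 (SE 0.44) for KO_HFD against KO_CHOW, so that the diet difference had opposite signs in the 2 genotypes. That in the knockout was not called by edgeR, DESeq2 or limma, however, and was -0.59 (SE 0.44) without KO_CHOW replicate 1. In a fit of all 4 groups the genotype by diet term was -3.14 (SE 0.63), where 51.5% of 975 genes passed an adjusted p of 0.05. On log2(FPKM + 0.1) the term was much smaller in size, as given with the dependence on processing. Markers of other cells moved in the same contrasts. Mesothelial, airway club and most listed fibroblast genes were lower in KO_CHOW than in WT_CHOW (5, 7 and 5 called, where 45% of listed genes were). The fibroblast gene Npnt was called higher. Listed genes of the same types were higher in KO_HFD than in KO_CHOW (6, 4 and 5 called, where 29.2% of listed genes were). Both comparisons use the same KO_CHOW libraries, so that opposite signs in them are not independent. The 7 airway club calls fell to 4 without KO_CHOW replicate 2. T cell genes had the opposite directions, with 4 called higher in KO_CHOW than in WT_CHOW (1 to 5 with 1 library left out), where 29.7% of listed genes were. In KO_HFD against KO_CHOW 2 of them were called lower (0 to 2), where 47.2% of listed genes were. Endothelial genes were higher in WT_HFD than in WT_CHOW (11 of 12 called, where 41.9% of listed genes were), and the part of these lists in this term was not tested.

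**Figure D1:**
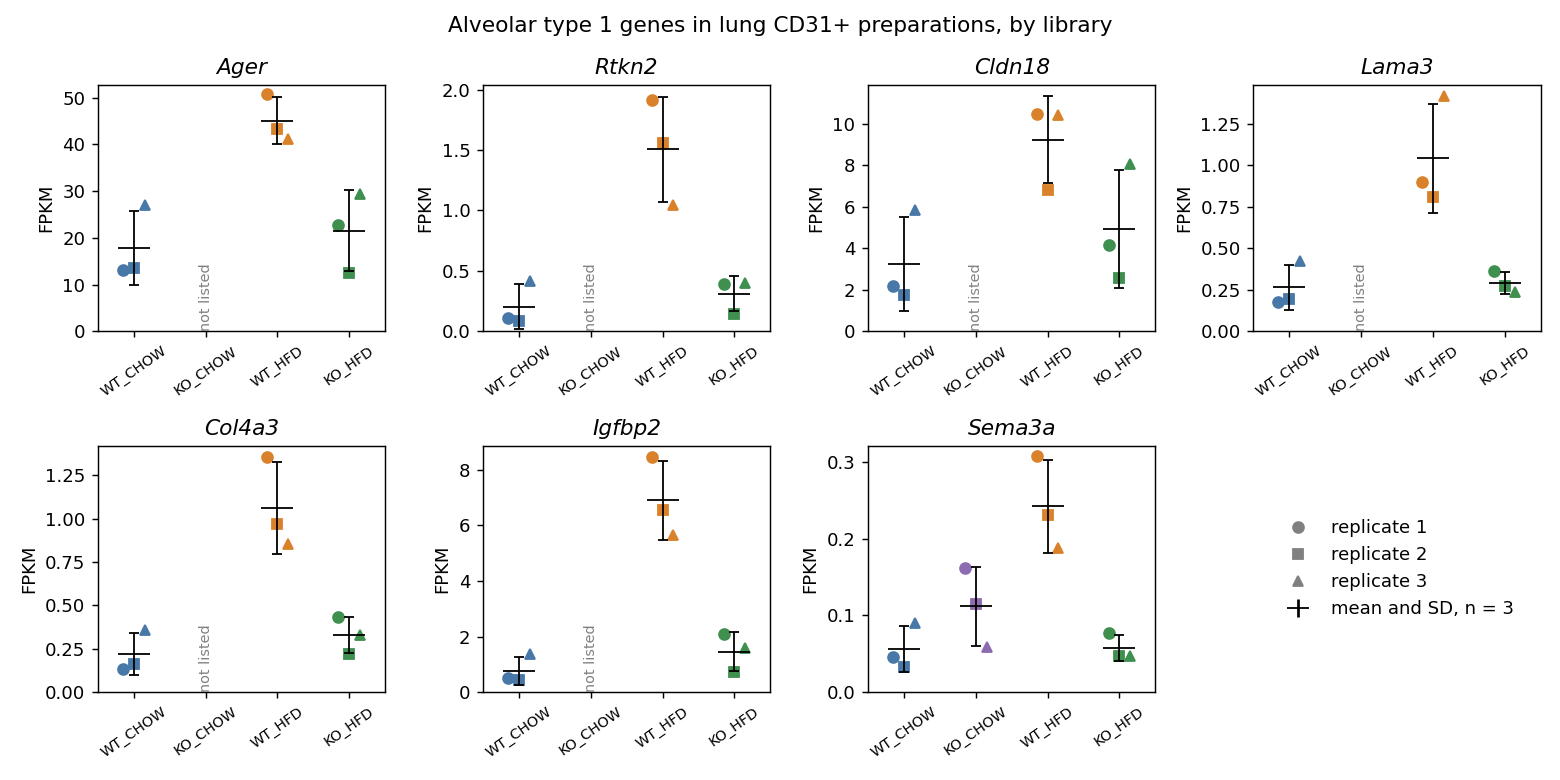
Level of each member in FPKM (vertical axis, 1 panel a gene, each with its own scale from 0) in each library with a value, by group (horizontal axis; KO_CHOW is not listed but for Sema3a) and replicate (symbols), with the mean and SD of 3 mice in black. WT_HFD libraries lie above WT_CHOW in every panel and above KO_HFD in every panel but that of Cldn18, and WT_CHOW replicate 3 is the highest of its group throughout.

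By these levels the members ranked in WT_HFD as Ager (45.0 FPKM ± 5.01), Cldn18 (9.25 ± 2.11), Igfbp2 (6.90 ± 1.43), Rtkn2 (1.51 ± 0.435), Col4a3 (1.06 ± 0.264), Lama3 (1.04 ± 0.329) and Sema3a (0.242 ± 0.0606; SD, n = 3 each). Cldn18 and Igfbp2 overlapped there, as did Rtkn2, Col4a3 and Lama3, and the other neighbours were apart. In WT_CHOW the order was Ager (17.9 FPKM ± 7.87), Cldn18 (3.27 ± 2.26), Igfbp2 (0.766 ± 0.516), Lama3 (0.265 ± 0.137), Col4a3 (0.219 ± 0.121), Rtkn2 (0.205 ± 0.187) and Sema3a (0.0567 ± 0.0301). Here Lama3, Col4a3 and Rtkn2 overlapped, as did Rtkn2 and Sema3a, and the others were apart. In KO_HFD the means were 21.6 FPKM for Ager, 4.94 for Cldn18, 1.46 for Igfbp2, 0.328 for Col4a3, 0.312 for Rtkn2, 0.293 for Lama3 and 0.0575 for Sema3a.

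Under edgeR's quasi-likelihood test 7 of 7 members had an unadjusted p under 0.05 (termed called) and were higher in WT_HFD than in WT_CHOW, in a table where 41.9% of the 7330 listed genes were called higher and 48.8% lower. For KO_HFD against WT_HFD 6 of 7 were called lower, Cldn18 being the exception, where 38.5% of 3939 listed genes were called lower and 41.9% higher. Cldn18 was called by DESeq2, with replicate number as a block, and without KO_HFD replicate 3 (-1.44, SE 0.31). The groups did not overlap for 7 of 7 members in the first comparison (39.8% of listed genes, higher) and for 6 of 7 in the second (35.8%, lower). For KO_HFD against KO_CHOW, where edgeR called 47.2% of 1628 listed genes lower, Sema3a was not called by edgeR, DESeq2 or limma, although the authors' own test had listed it. After Benjamini-Hochberg adjustment over the genes the authors adjusted, edgeR called 5 of 7 members in the first comparison (16.9% of the 7169 listed genes that the authors adjusted), none in the second (0% of 3590) and not Sema3a in the third (0.0674% of 1483). Since the members were chosen with these contrasts known, nothing is read from these shares. All listed genes had a median log2 fold change of -0.32 in the first comparison and 0.33 in the second, and the members had medians of 2.10 and -1.82.

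Without WT_CHOW replicate 3 the diet difference of every member was greater, with log2 fold changes of 1.77 for Ager, 2.24 for Cldn18, 2.50 for Lama3, 2.61 for Sema3a, 2.84 for Col4a3, 3.88 for Igfbp2 and 3.95 for Rtkn2. Without WT_CHOW replicate 1, Cldn18 was not called (1.28). In the knockout comparison KO_HFD replicate 2 was the lowest of its group for Ager, Rtkn2, Cldn18, Col4a3 and Igfbp2. Leaving it out gave -0.78 (SE 0.21) for Ager, -1.92 (SE 0.32) for Rtkn2 and -1.90 (SE 0.27) for Igfbp2.

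To see where the knockout on high-fat diet stood against the wild type on chow, the 9 libraries of WT_CHOW, WT_HFD and KO_HFD were fitted together over the 2947 genes listed in both tables. The log2 difference of KO_HFD from WT_CHOW was 0.90 (SE 0.46) for Igfbp2, 0.64 (SE 0.52) for Cldn18, 0.60 (SE 0.59) for Rtkn2, 0.55 (SE 0.37) for Col4a3, 0.28 (SE 0.36) for Ager, 0.10 (SE 0.33) for Lama3 and -0.03 (SE 0.38) for Sema3a. Each of these was under 2 SE and smaller in size than either of the member's differences from WT_HFD. For every member the individual libraries of KO_HFD and WT_CHOW overlapped.

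Other alveolar type 1 genes of the fixed list had the directions of the members, with smaller medians. For WT_HFD against WT_CHOW 17 of 21 were listed, all 17 were higher, and edgeR called 15 of them (16 without WT_CHOW replicate 3), with log2 fold changes from 0.66 to 1.62 and a median of 1.14. The most abundant were Vegfa (1.04, SE 0.32), Emp2 (1.04, SE 0.29), an epithelial membrane protein, Clic5 (1.54, SE 0.38), a chloride channel family protein, and Hopx (1.18, SE 0.26), a homeodomain protein that marks this cell type. For KO_HFD against WT_HFD 16 were listed, all 16 were lower and 13 were called, with a median of -0.87. Here Vegfa (-0.75, SE 0.25), Clic5 (-0.95, SE 0.32), Hopx (-0.73, SE 0.23) and Fam189a2 (-0.69, SE 0.16) led by abundance. Without WT_HFD replicate 1 the number called in this comparison was 8. The list holds genes chosen with results of these data known, so that its direction is no independent evidence.

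Of these genes 12 were listed in both comparisons, all 12 higher on high-fat diet in the wild type and lower in KO_HFD than in WT_HFD. Of all 2947 genes listed in both, 1409 had this pair of directions. The summed level of the 12 was 53.2, 50.7 and 103 FPKM in WT_CHOW, 194, 147 and 133 FPKM in WT_HFD, and 114, 72.3 and 78.6 FPKM in KO_HFD. As with the members, WT_HFD lay above both other groups and those overlapped.

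For KO_HFD against KO_CHOW 3 of the 21 were listed, and edgeR called all 3 lower. Fam189a2 was at 12.6, 10.7 and 6.42 FPKM in KO_CHOW and 6.20, 6.40 and 5.55 FPKM in KO_HFD (log2 fold change -0.71, SE 0.26). Sema3e, a semaphorin related to Sema3a, had a log2 fold change of -1.15 (SE 0.36) and Akap5, a kinase anchoring protein, of -0.77 (SE 0.24). KO_CHOW replicate 3 was the lowest of its group for these 3 genes as for Sema3a. With library sizes set by edgeR's TMM factors 1 of the 3 was called, and the split of all called genes moved from 475 higher and 768 lower to 636 higher and 351 lower. Without KO_CHOW replicate 1 also 1 of the 3 was called. The 1 endothelial gene listed there, Emcn, was higher in KO_HFD (0.98, SE 0.32), and by 0.54 (SE 0.21) without KO_HFD replicate 1.

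Other cell types also differed between KO_HFD and KO_CHOW, where 29.2% of listed genes were called higher. Of 7 mesothelial genes 6 were listed and all 6 were called higher in KO_HFD (median log2 fold change 1.99), led by Msln (2.43, SE 0.49), and their summed level was 2.72, 2.08 and 1.15 FPKM in KO_CHOW and 5.07, 8.81 and 8.45 FPKM in KO_HFD. All 4 listed airway club genes were called higher (median 1.28), led by Bpifa1 (1.23, SE 0.48), with sums of 28.6, 24.4 and 35.1 FPKM against 83.7, 34.3 and 91.0 FPKM, which overlap. Of 6 listed fibroblast genes 5 were called higher (median 1.45), led by Inmt (2.19, SE 0.39), with sums of 4.39, 3.20 and 3.26 FPKM against 9.20, 7.54 and 16.6 FPKM. Called lower in KO_HFD, as the 3 alveolar type 1 genes were, were the T cell genes Il7r (-0.55, SE 0.22) and Cd8a (-0.62, SE 0.23), the macrophage genes Mrc1 (-0.92, SE 0.32) and Marco (-0.97, SE 0.38) and the epithelial gene Epcam (-0.60, SE 0.21), while no alveolar type 2 gene was listed. All 5 of these calls were lost without KO_CHOW replicate 1, where 26.4% of all listed genes were called lower (47.2% with all libraries). Il7r (-0.59), Cd8a (-0.64) and Marco (-1.05) were then greater in size, and Mrc1 (-0.83) and Epcam (-0.51) smaller. Each of the 5 calls was also lost when some other single library was left out. The number of fibroblast genes called was 3 without KO_CHOW replicate 2 or KO_HFD replicate 3. The part of these cell types in the differences of Sema3a and of the 3 genes was not tested. For KO_CHOW against WT_CHOW, where 29.7% of 1298 listed genes were called higher and 45% lower, none of the 21 other alveolar type 1 genes and none of the 12 endothelial genes was listed. Of the cell types that were higher in KO_HFD than in KO_CHOW, most listed genes were lower in KO_CHOW than in WT_CHOW. Both comparisons use the same KO_CHOW libraries, so that opposite signs in them are not independent. Called lower were 7 of 7 airway club genes (median -1.29), 5 of 5 listed mesothelial genes (median -1.89) and 5 of 6 listed fibroblast genes (median -1.09). The other listed fibroblast gene, Npnt, was called higher (0.98). That call was lost without any 1 of KO_CHOW replicates 1 and 2 and WT_CHOW replicates 1 and 2. The number of airway club genes called was 4 without KO_CHOW replicate 2 and 5 without KO_CHOW replicate 3 or WT_CHOW replicate 3. Of 8 T cell genes 5 were listed, all higher, and 4 were called (1 to 5 with 1 library left out). The macrophage gene Ccr2 was called higher too (1.01). Msln had a mean of 2.22 FPKM in WT_CHOW, 0.438 in KO_CHOW, 1.22 in WT_HFD and 2.38 in KO_HFD, with KO_CHOW the lowest. In WT_CHOW Msln was at 1.49, 4.88 and 0.279 FPKM, and its difference was -1.03 (SE 0.78, not called) without replicate 2.

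Of 15 alveolar type 2 genes 9 were listed for WT_HFD against WT_CHOW, all with higher means in WT_HFD, and 3 were called higher (41.9% of all listed genes were), with a median log2 fold change of 0.94. Sftpb (0.90, SE 0.46), Cxcl15 (1.02, SE 0.51) and Slc34a2 (1.05, SE 0.52) were not called and Napsa, a protease that processes surfactant proteins, was (0.81, SE 0.18). Their summed level was 278, 242 and 655 FPKM in WT_CHOW and 762, 513 and 938 FPKM in WT_HFD, which overlap through WT_CHOW replicate 3 alone. Without that library all 9 were called higher (36% of all listed genes were), with a median of 1.68, and Sftpb was at 1.55 (SE 0.32), Cxcl15 at 1.84 (SE 0.30) and Slc34a2 at 1.87 (SE 0.32), so that the low number called rests on 1 mouse. In the knockout comparison on high-fat diet no alveolar type 2 gene was listed, whereas all 7 members were. Of 13 genes shared by many epithelia, 4 were listed with diet in the wild type, and they were split. Krt7 (1.15, SE 0.27) and the lung transcription factor Nkx2-1 (0.92, SE 0.36) were higher in WT_HFD, and Krt19 (-0.97, SE 0.24) and Epcam (-0.70, SE 0.23), an adhesion molecule of epithelia, were lower. Krt7 (-0.94, SE 0.23) was the 1 gene of this list with a row for KO_HFD against WT_HFD. Among genes of epithelia at large 2 thus went with the alveolar type 1 genes on high-fat diet and 2 against them.

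Endothelial genes moved with the members in both. All 12 were higher in WT_HFD than in WT_CHOW, 11 of them called, with a median log2 fold change of 1.34, led by Cldn5 (1.29, SE 0.46), Cdh5 (1.58, SE 0.40), Eng (1.10, SE 0.54, not called) and Pecam1 (1.19, SE 0.34), which encodes CD31. Without WT_CHOW replicate 3 all 12 were called (median 1.93), with Cldn5 at 2.02 (SE 0.24) and Eng at 1.96 (SE 0.32), and with any other library left out the number called was 7 or more. For KO_HFD against WT_HFD 9 were listed, all lower and 8 called, with a median of -1.02. The number called was 3 without WT_HFD replicate 1, KO_HFD replicate 2 or KO_HFD replicate 3, and 5 without WT_HFD replicate 2. The summed level of these 9 was 311, 265 and 765 FPKM in WT_CHOW, 1450, 1141 and 822 FPKM in WT_HFD and 790, 430 and 487 FPKM in KO_HFD, and no gene was at 0 in any library. Pecam1 had a log2 fold change of -0.67 (SE 0.24) there. Genes of alveolar capillaries did the same. Of 9 of them 6 were listed with diet in the wild type, all called higher (median 1.84), among them Cd93 (1.60, SE 0.48), Ednrb (1.58, SE 0.33) and Gpihbp1 (2.09, SE 0.52), and 7 were listed for KO_HFD against WT_HFD, all lower and 6 called (median -1.28). Endothelial and alveolar type 1 RNA thus moved together, and the part of this in the members' differences was not tested.

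Markers of other cell types had few rows in the knockout comparison, where they went either way. Of 7 airway club cell genes 3 were listed for WT_HFD against WT_CHOW, all lower and 2 called, led by the secretoglobin gene Scgb1a1, whose mean was 5038 FPKM in WT_CHOW and 3358 FPKM in WT_HFD (log2 fold change -0.58, SE 0.29, not called, and -0.31 without WT_HFD replicate 2). Bpifa1 was called lower with diet (-1.43, SE 0.56) and was the 1 gene of this list with a row in the knockout comparison (1.20, SE 0.56, not called), with both signs opposite to the members'. Without WT_CHOW replicate 3 its diet difference was -0.83 (SE 0.47) and no club gene was called. None was called without WT_CHOW replicate 1 either. Of 7 ciliated cell genes 1 was listed and called higher with diet, Sec14l3 (1.03, SE 0.32), and 2 were listed in the knockout comparison, Tppp3 (-0.80, SE 0.32), which was called lower but was at -0.37 (SE 0.22, not called) without WT_HFD replicate 3, and Sec14l3 (-0.76, SE 0.37), which was not, but was at -1.23 (SE 0.29, called) without KO_HFD replicate 3. Of 7 mesothelial genes 1 was listed in each comparison and neither was called, Muc16 with diet (-0.97, SE 0.47) and Msln in the knockout comparison (0.96, SE 0.48), both with signs opposite to the members'. Muc16 was called without WT_CHOW replicate 3 (-1.28, SE 0.41) and Msln without WT_HFD replicate 1 (1.59, SE 0.42). Fibroblast genes numbered 6 of 12 listed with diet, all higher and 3 called (median 1.39), and 0 of 12 listed in the knockout comparison. The number called with diet was 2 without WT_CHOW replicate 3 and 1 without WT_CHOW replicate 2 or WT_HFD replicate 1 (median 0.81 for the latter). It was 6 without WT_HFD replicate 2 (median 1.68). Of 7 genes of smooth muscle and pericytes 3 were listed with diet, 1 called higher and 2 lower, of 5 neutrophil genes 1, called lower, of 8 T cell genes 2, called higher, and of 4 B cell genes 0, and none of these lists had a row in the knockout comparison. No T cell gene was called without any 1 of WT_CHOW replicates 2 and 3 and WT_HFD replicates 1 and 2. The neutrophil call was lost without WT_CHOW replicate 1 or WT_HFD replicate 2. The number of smooth muscle and pericyte genes called lower was 1 without WT_CHOW replicate 2 or WT_HFD replicate 2. Of 9 macrophage and monocyte genes 5 were listed with diet, 2 called higher and 3 lower, and 1 in the knockout comparison. This was Ccr2, called higher with diet (1.38, SE 0.23) and lower in KO_HFD (-1.05, SE 0.36). The latter was not called without WT_HFD replicate 2 (-0.98, SE 0.42) or WT_HFD replicate 3 (-0.92, SE 0.40).

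**Figure D2:**
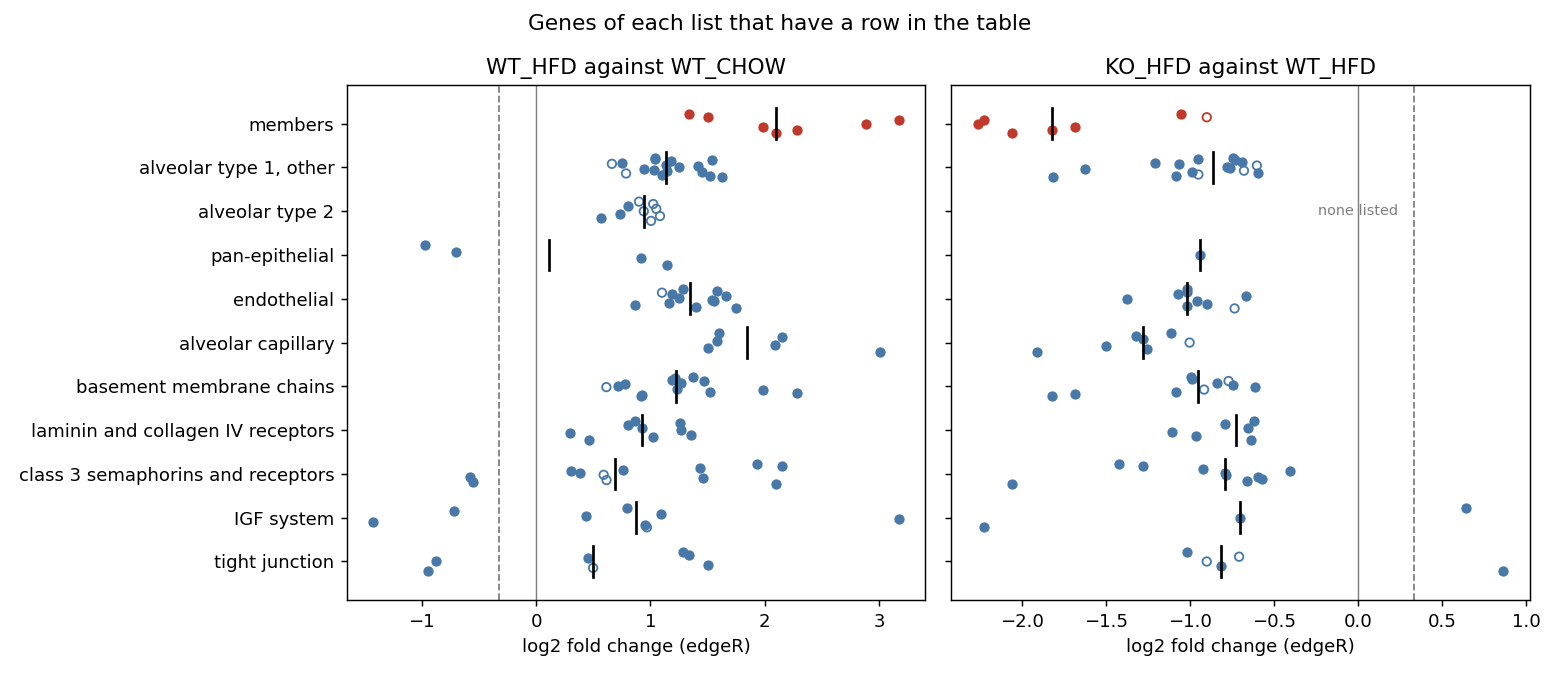
Log2 fold change (horizontal axis) of the genes of each list (rows) that have a row in the table, for WT_HFD against WT_CHOW (left) and KO_HFD against WT_HFD (right), with 3 libraries a group. Filled points were called by edgeR at an unadjusted p under 0.05, open points were not, members are red and other genes blue, black bars are list medians, the solid grey line is 0 and the dashed grey line the median of all listed genes. The members' medians, 2.10 and -1.82, lie beyond those of the other lists drawn, and endothelial genes lie on the same side as the members in both panels.

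Each member was also divided by the summed level of the 9 endothelial genes in its own library. These are the genes of that list with a row in both tables, so that they were themselves listed for differing between WT_HFD and the other groups, and the ratio does not hold endothelial content level. For Ager this ratio was 42.8 ± 7.85 per 1000 FPKM of endothelial genes in WT_CHOW, 41.0 ± 7.95 in WT_HFD and 39.4 ± 18.3 in KO_HFD (SD, n = 3 each). WT_CHOW and WT_HFD overlapped almost fully, and KO_HFD overlapped with them through its replicate 3 at 60.6, since replicates 1 and 2 at 28.9 and 28.8 lay below every WT_CHOW and WT_HFD library. Cldn18 gave 7.10 ± 0.549, 8.64 ± 3.58 and 9.29 ± 6.34, where KO_HFD replicate 3 was at 16.6 and replicates 1 and 2 at 5.29 and 5.97. Lama3 gave 0.620 ± 0.111, 1.02 ± 0.614 and 0.529 ± 0.0905, with WT_HFD replicate 3 apart at 1.73.

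The other 4 members were higher in all 3 WT_HFD libraries than in the other 6 by this ratio. Igfbp2 was between 1.59 and 1.78 in WT_CHOW, between 5.76 and 6.89 in WT_HFD and between 1.66 and 3.24 in KO_HFD. Rtkn2 was between 0.316 and 0.550, between 1.28 and 1.37, and between 0.330 and 0.817 in the same groups. Col4a3 was between 0.434 and 0.620, between 0.851 and 1.04, and between 0.516 and 0.682, and Sema3a between 0.119 and 0.148, between 0.203 and 0.228, and between 0.0972 and 0.111. Of all 2947 genes listed in both tables, 25 (0.848%), these 4 among them, had WT_HFD above both other groups with no overlap by the same ratio, and nothing is read from this share since the members were chosen with these contrasts known. For Sema3a KO_HFD also lay below WT_CHOW.

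**Figure D3:**
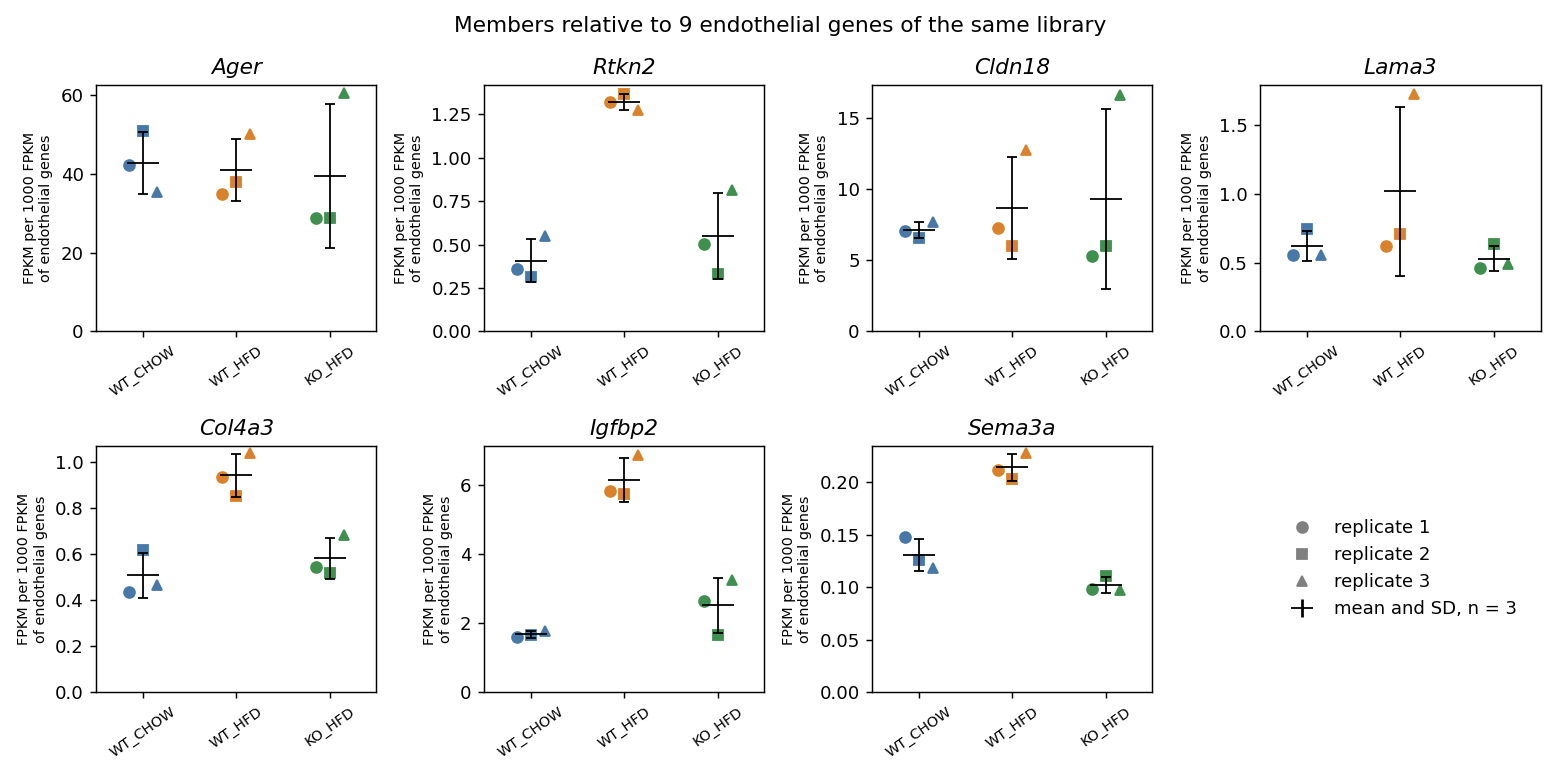
Each member's FPKM per 1000 FPKM of the summed 9 endothelial genes of the same library (vertical axis, own scale from 0 in each panel), by group, with the mean and SD of 3 mice in black. The groups overlap for Ager, Cldn18 and Lama3, with KO_HFD replicate 3 far above replicates 1 and 2 for Ager and Cldn18, whereas Igfbp2, Rtkn2, Col4a3 and Sema3a are higher in all 3 WT_HFD libraries than in any other.

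The same was done in the fit across all listed genes, with library sizes set by the endothelial genes, a scaling added after the data were seen. It moved the median of all listed genes by -1.50 on the log2 scale for WT_HFD against WT_CHOW and by 0.996 for KO_HFD against WT_HFD. The split of called genes went from 3070 higher and 3580 lower to 53 and 4789 in the first, and from 1650 higher and 1517 lower to 2058 and 20 in the second. Igfbp2 (1.91, SE 0.56) and Rtkn2 (1.68, SE 0.57) were the 2 members among the 53, which are 0.723% of the table. Ager was near 0 at -0.0033 (SE 0.50), Cldn18 was at 0.33 (SE 0.50), Sema3a at 0.75 (SE 0.59), Lama3 at 0.79 (SE 0.53) and Col4a3 at 0.95 (SE 0.54). For KO_HFD against WT_HFD 4 members were called lower, Igfbp2 (-1.29, SE 0.39), Rtkn2 (-1.26, SE 0.43), Sema3a (-1.09, SE 0.42) and Lama3 (-0.97, SE 0.44), among 0.508% of listed genes called lower. The other 3 were not called, Ager (-0.049, SE 0.38) and Cldn18 (0.11, SE 0.47) being near 0 and Col4a3 at -0.71 (SE 0.37). The other alveolar type 1 genes had medians of -0.19 and 0.15 under this scaling, with none called, and whether they differed from the endothelial genes was not tested.

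**Figure D4:**
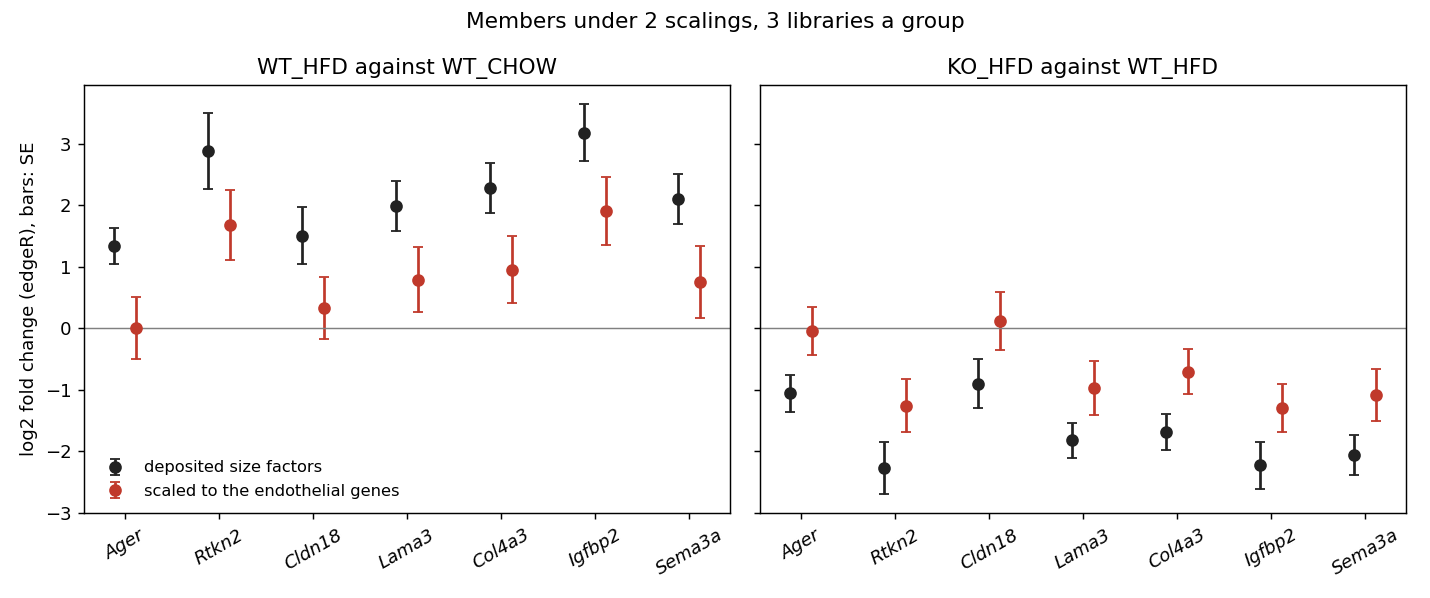
Log2 fold change of each member with its SE (vertical axis) for WT_HFD against WT_CHOW (left) and KO_HFD against WT_HFD (right), 3 libraries a group, with the deposited size factors (black) and with libraries scaled to the endothelial genes (red). Igfbp2 moves from 3.17 to 1.91 and Ager from 1.34 to -0.0033 in the left panel, and Igfbp2 from -2.23 to -1.29 in the right panel.

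Scaled instead to the listed alveolar type 2 genes, also a choice made after the data were seen and possible for the wild-type comparison alone, the diet difference was 2.37 (SE 0.57) for Igfbp2, 2.22 (SE 0.58) for Rtkn2, 1.41 (SE 0.56) for Col4a3 and 1.24 (SE 0.60) for Sema3a, the 4 members called. Lama3 (1.03, SE 0.55), Cldn18 (0.66, SE 0.53) and Ager (0.42, SE 0.52) were not called. This scaling moved the median of all listed genes by -1.11, and 1.38% of them were called higher.

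Relative to Ager within the same library, the members' proportions differed between groups as well. Igfbp2 came to 40.3 ± 9.14 per 1000 of Ager in WT_CHOW, 152 ± 14.6 in WT_HFD and 67.6 ± 20.9 in KO_HFD, and Rtkn2 to 10.1 ± 4.92, 33.1 ± 6.62 and 14.1 ± 2.99 (SD, n = 3 each). Both were highest in all 3 WT_HFD libraries. Cldn18 kept a like proportion, with 171 ± 44.4, 206 ± 48.5 and 221 ± 47.2 per 1000 of Ager and overlapping ranges.

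Across the 9 libraries that all members share, the 21 pairs of members had Pearson correlations of log2(FPKM + 0.1) from 0.76 (Cldn18 with Sema3a) to 0.99 (Col4a3 with Igfbp2), with a median of 0.92. The points share their library, its depth and the group structure, so these values are a description.

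The partner genes of the members were followed by role, and the lists overlap with the members by the genes named above. Of 21 basement membrane genes 14 were listed with diet in the wild type, all higher and 13 called (median log2 fold change 1.22), and 10 for KO_HFD against WT_HFD, all lower and 8 called (median -0.95). The abundant chains were Col4a1 (1.37, SE 0.48, then -0.99, SE 0.29), Col4a2 (1.21, SE 0.48, then -0.99, SE 0.28), Lama5 (1.19, SE 0.38, then -0.77, SE 0.35, not called) and Lamb2 (1.47, SE 0.34, then -0.84, SE 0.32). Named after their values were seen, the collagen partner of Col4a3, Col4a4, had 1.52 (SE 0.38) and -1.08 (SE 0.27), while Lamb3, a laminin partner of Lama3, had no row. Col4a3 and Lama3 had the greatest differences among the listed genes of this list in both comparisons, with all 6 libraries of each. Their receptors did likewise on a smaller scale. Of 10 of them 9 were listed and called higher in WT_HFD (median 0.92), led by the integrin subunit gene Itgb1 (0.87, SE 0.22), and 6 were listed and called lower in KO_HFD (median -0.73). The numbers called in the knockout comparison fell without some libraries, to 5 basement membrane genes without WT_HFD replicate 1 or KO_HFD replicate 2 and to 2 receptors without KO_HFD replicate 3. Without WT_CHOW replicate 3 the diet comparison called 13 basement membrane genes (median 1.79) and 8 receptors (median 1.18), with Col4a1 at 2.11 (SE 0.28) and Col4a2 at 1.98 (SE 0.25). Both were not called without any 1 of WT_CHOW replicates 1 and 2 and WT_HFD replicates 1 and 2, and 8 basement membrane genes were called without WT_CHOW replicate 1, WT_CHOW replicate 2 or WT_HFD replicate 1.

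Among class 3 semaphorins and their receptors 12 of 15 were listed with diet in the wild type, 8 called higher and 2 called lower (median 0.69), and 10 were listed for KO_HFD against WT_HFD, all called lower (median -0.79). Without WT_CHOW replicate 3 the former counts were also 8 and 2, and in the knockout comparison 3 were called without WT_HFD replicate 1 and 5 without KO_HFD replicate 2 or KO_HFD replicate 3. Sema3g (1.93, SE 0.44, then -1.42, SE 0.29), Sema3c (2.15, SE 0.39, then -1.28, SE 0.34) and Sema3f (1.43, SE 0.41, then -0.92, SE 0.32) were far more abundant than Sema3a, at 65.1, 59.9 and 48.3 FPKM in WT_HFD. Nrp1, a receptor of Sema3a, was also higher on high-fat diet (0.76, SE 0.20), and the 2 called lower were Nrp2 (-0.58, SE 0.16) and Plxna3 (-0.56, SE 0.16).

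The insulin-like growth factor system was mixed. Of 16 genes 8 were listed with diet in the wild type, 5 called higher and 2 called lower, and Igfbp2 had the greatest difference. Without WT_CHOW replicate 3 these counts were also 5 and 2. Igfbp7 (0.80, SE 0.32, and 1.27 without that library) and Igfbp4 (1.09, SE 0.24), other binding proteins, were higher, and Irs2, a substrate of the insulin receptor (-0.72, SE 0.21), and Igf1 (-1.42, SE 0.40) were lower in WT_HFD. Igfbp7 was not called without any 1 of WT_CHOW replicates 1 and 2 and WT_HFD replicates 1, 2 and 3 (0.58 to 0.88). In the knockout comparison 3 were listed, Igfbp2, Igfbp4 (-0.70, SE 0.23) and Irs2 (0.64, SE 0.22).

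Tight junction genes were split too, with 4 of 19 called higher and 2 called lower in WT_HFD (5 and 2 without WT_CHOW replicate 3, 1 and 2 without WT_CHOW replicate 1). Cldn5 of endothelium and Tjp1 (1.34, SE 0.32) were higher with Cldn18, and Marveld2 (-0.87, SE 0.15) and Cldn15 (-0.94, SE 0.21) were lower. Between KO_HFD and WT_HFD 5 were listed, of which Cldn5 (-1.02, SE 0.29) and Ocln (-0.82, SE 0.19) were called lower and Cldn15 (0.87, SE 0.22) higher. Among ligands and partners of RAGE, S100a6 (1.09, SE 0.32) and S100a4 (1.28, SE 0.42), which encode ligands, were called higher in WT_HFD with Ager (0.63, SE 0.17, and 0.74, SE 0.30, without WT_HFD replicate 3), Tlr2 (-0.95, SE 0.41) was listed and not called, and S100a8, S100a9 and Hmgb1 had no row there. Of 13 genes linked to YAP and TEAD, which act in alveolar type 1 differentiation, Amotl2 (1.48, SE 0.35), Yap1 (1.17, SE 0.33), Tead4 (1.98, SE 0.35) and Tead1 (0.89, SE 0.29) were called higher with diet and Axl (-0.995, SE 0.28) lower (also 4 and 1 without WT_CHOW replicate 3), and 3 of 4 listed genes were called lower in KO_HFD (2 without KO_HFD replicate 2).

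Genes whose level followed the members most closely were sought among those with a mean of at least 50 reads. For Sema3a, over 12 libraries and 827 genes, the closest were Tril (r = 0.95), Nhlrc1 (0.95), Btbd3 (0.93), Rtl8b (0.93), B3gnt3 (0.93), Tmem246 (0.92), St6galnac2 (0.92), Tnfsf10 (0.92), Adrb1 (0.92) and Ccdc90b (0.91). For the mean standardised profile of all 7 members over 9 libraries and 2365 genes, a search added after the data were seen, those reported here were Tmem221, Dpysl2, Slc44a1, Tmem176a, Prodh, Eva1c, Ndnf, Mmp14 and Mtus1, with r from 0.98 to 0.99. None of these belongs to the list of other alveolar type 1 genes, of which Col4a4 came closest at r = 0.96 and rank 55, next to the endothelial gene Egfl7 at rank 50 (r = 0.96). These are correlations over libraries that share depth and group, given as likeness of pattern alone.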

How the data were processed

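RNA from CD31+ lung cells of 12 mice (4 groups of 3) was sequenced after poly(A) selection. The authors used HISAT2 to align reads to mm10, featureCounts for reads per gene and DESeq2 to compare groups (versions not given in the sources used here). Whether counting used strand is not stated. The deposited tables give raw counts, size-factor normalized counts (a signal) and FPKM of genes whose p-value was under 0.05. The authors' log2 fold changes and group means were not used, and their p-values served only to check that threshold and to count adjusted genes.

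Here raw counts of every listed gene were fitted per table in edgeR 4.0.16 (R 4.3.3; quasi-likelihood, robust, two-sided) with effective library sizes from the deposited normalized counts, and called at an unadjusted p under 0.05. Because each table holds only genes past the authors' threshold, most listed genes are called. Tests ran on simulated data first. DESeq2 1.42.0, limma 3.58.1 on log2(FPKM + 0.1) or log2(FPKM + 1), TMM factors, library totals, a mean of at least 10 normalized counts, adjusted p, a replicate block and each library left out were alternatives. Counts of a gene were identical in every table that lists it, and no 2 libraries of a group agreed within sampling noise. Members, lists and tests were chosen with earlier results of these data known. All members were named, up to 4 listed genes a list by highest mean FPKM, and the 10 genes of most similar pattern. Results that need some withheld items are not reported here.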

Additional observations from a re-analysis of the deposited data

Results flagged for a closer look

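The diet difference of Sema3a differed between genotypes. In a fit of the 975 genes with values in all 12 libraries, the log2 difference between high-fat diet and chow was lower in the knockout than in the wild type (genotype by diet term -3.14, SE 0.63). The term was much smaller in size on log2(FPKM + 0.1), as given below. Sema3a was higher in 3 of 3 WT_HFD libraries than in any WT_CHOW library, and 2 of 3 KO_HFD libraries lay below all KO_CHOW libraries. Genes reach this fit by being listed in tables that together hold the 4 groups, and 51.5% of the 975 had an adjusted p under 0.05 for the same term, so the value is a description of a gene chosen with these contrasts known. The knockout difference was not called (-0.96, SE 0.44) and was -0.59 (SE 0.44) without KO_CHOW replicate 1. Mesothelial, airway club and most listed fibroblast genes were lower in KO_CHOW than in WT_CHOW (5, 7 and 5 called, where 45% of listed genes were). The fibroblast gene Npnt was called higher. Listed genes of the same types were higher in KO_HFD than in KO_CHOW (6, 4 and 5 called, where 29.2% of listed genes were). Both comparisons use the same KO_CHOW libraries, so that opposite signs in them are not independent. The 7 airway club calls fell to 4 without KO_CHOW replicate 2. T cell genes had the opposite directions, with 4 called higher in KO_CHOW than in WT_CHOW (1 to 5 with 1 library left out), where 29.7% of listed genes were. In KO_HFD against KO_CHOW 2 of them were called lower (0 to 2), where 47.2% of listed genes were. Endothelial genes were higher in WT_HFD than in WT_CHOW (11 of 12 called, where 41.9% of listed genes were), and the part of these lists in the term was not tested. The other 6 members have no values in KO_CHOW here.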

How the results depend on the processing

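The direction of each member's difference was the same under edgeR with TMM factors or library totals, DESeq2, limma on FPKM, the count minimum and the replicate block, and with each library left out. With library sizes set by the endothelial genes, 2 of 7 members were called for WT_HFD against WT_CHOW, Ager being near 0 (-0.0033, SE 0.50), and 4 for KO_HFD against WT_HFD, Ager (-0.049, SE 0.38) and Cldn18 (0.11, SE 0.47) being near 0 and Col4a3 (-0.71, SE 0.37) not called, and 0 other alveolar type 1 genes were called in either. Ager in the first and Cldn18 in the second have the opposite sign to the unscaled value and lie within 1 SE of 0, under a scaling that moved all listed genes. With the alveolar type 2 genes 4 members and 0 other alveolar type 1 genes were called. With Benjamini-Hochberg adjustment over the genes the authors adjusted, edgeR called 5 members and 2 other alveolar type 1 genes for WT_HFD against WT_CHOW, 0 members and 0 other genes for KO_HFD against WT_HFD (6 and 13 at an unadjusted p, 7 and 13 by DESeq2), where no listed gene passed, and 0 of the 3 other genes for KO_HFD against KO_CHOW. TMM factors left 1 of these 3. Leaving out 1 library at a time gave 6 to 7 members and 11 to 16 other genes for WT_HFD against WT_CHOW, 6 to 7 members and 8 to 14 other genes for KO_HFD against WT_HFD, 0 to 1 member and 1 to 3 other genes for KO_HFD against KO_CHOW, and -3.62 to -2.84 for the genotype by diet term of Sema3a. Over the same omissions 27.1% to 36% of all listed genes were called higher for WT_HFD against WT_CHOW. The share called lower was 18.2% to 30.8% for KO_HFD against WT_HFD and 21.8% to 43.8% for KO_HFD against KO_CHOW. Sema3a was called for KO_HFD against KO_CHOW without KO_CHOW replicate 3 (-1.27) or KO_HFD replicate 1 (-1.23) and was at -0.59 (SE 0.44) without KO_CHOW replicate 1. Of the genes of all lists, members included, 76 of 111 calls for WT_HFD against WT_CHOW, 32 of 64 for KO_HFD against WT_HFD, 16 of 28 for KO_HFD against KO_CHOW and 15 of 29 for KO_CHOW against WT_CHOW held with each library left out in turn. On log2(FPKM + 0.1) the genotype by diet term of Sema3a was -1.53, since the pseudocount is near the level of this gene. The causes of the other changes were not tested.

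Deviations of same-numbered libraries correlated from -0.14 to 0.21, over 0.1 in 3 of 12 pairs, and 4 of 24 samples correlated best with their own number. Differently numbered libraries correlated from -0.42 to 0.37. The labels give replicate numbers only, and deviations from a mean of 3 libraries cannot show whether the numbers pair the mice. With the replicate block 7 members were called in WT_HFD against WT_CHOW, where 33.9% of 7330 listed genes were called higher (41.9% without the block), and 7 in KO_HFD against WT_HFD, where 37.9% of 3939 were called lower (38.5% without it), with 16 other alveolar type 1 genes in the latter, and the genotype by diet term of Sema3a was -3.11. Depth limits Sema3a and Rtkn2 most, each with 17 reads in its lowest library. Genes without a row may have differed by less than the authors' threshold, and their levels were not analysed here.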
